A study of Homo sapiens with 6 samples.

Results

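The genes described here act in homologous recombination and in the Fanconi anaemia pathway, the routes by which cells repair broken chromosomes and DNA crosslinks using an intact copy of the sequence. They were chosen as a list of 45 genes by symbol, of which 41 are named by GEO's annotation of the arrays and were matched through it to a probe set, out of 24726 probe sets in all. That annotation does not name the other 4, no other table was used to match them, and they were not analysed here. The list was drawn up with the difference between the groups already known for some of its genes, MND1 among them, so the differences below are a description and not an independent test of the list.

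Expression was measured on Affymetrix whole-transcript arrays in 6 subcutaneous tumours that Huh7 cells, an established line of human hepatocellular carcinoma, had formed in nude mice. In 3 IR-A tumours the cells had been stably transfected with a plasmid, pRcCMVi.hIR-A(GFP), that encodes the A isoform of the insulin receptor, and in 3 control tumours with the empty vector. Cells of both kinds were selected with G418 and sorted for green fluorescence before injection. The labels do not say whether the transfected cells were pools or clones, or how old the mice were, and nude mice keep innate immune and stromal cells. Values are log2 signals, 1 per gene and tumour, and differences are given as IR-A minus control, between group means. Nothing in the labels ties a tumour to a separate culture, so the spread behind each p-value is that between the 6 samples and may be technical.

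As background, homologous recombination begins when nucleases trim a broken end to expose a single strand, which BRCA proteins and their partners help to coat with a recombinase. The coated strand invades the sister chromatid, and helicases and nucleases then take the joined molecules apart. The Fanconi core complex marks FANCI and its partner with ubiquitin at a crosslink and feeds the lesion into the same route, while ATM, ATR and the kinases below them hold the cell cycle. Many of these genes are transcribed mainly in cells that replicate their DNA, and MND1, PSMC3IP and DMC1 are best known from meiosis.

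INSR, the gene of the transfected receptor, checked the labels. It read 10.65, 11.31 and 11.01 in the IR-A tumours and 8.04, 7.61 and 8.47 in the control tumours, and the probe set does not separate its isoforms. Its difference was 2.95 (SE 0.26), and its adjusted p in limma, 0.0769, was also above 0.05. Hepatocyte markers were bright in every tumour, with means over 11 genes of 12.15 to 12.26 in IR-A tumours against 11.84 to 12.08 in control tumours, and 5 of the 11 were higher at an unadjusted p under 0.05, where 7.1% of all probe sets were higher and 7.03% lower. Of markers of other cells, 3 of 11 fibroblast, 2 of 8 macrophage and 1 of 8 endothelial genes were higher at that level, 1 macrophage gene was lower, and none of the 7 lymphocyte or 7 germ cell genes measured differed at it. Mouse RNA is read only where it binds human probes, and the part of these cells in the results was not tested. Control tumour 2 resembled the other group more than its own, with a mean correlation of 0.982 with the other controls and 0.987 with the IR-A tumours over all probe sets.

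Most of the repair genes had lower signal in IR-A tumours. Of the 41, 34 (82.9%) lay below 0 and 7 above, against 56.0% of all probe sets below 0. The median difference was -0.19 on the log2 scale, against -0.03 for all probe sets. None passed an adjusted p of 0.05 in limma, where 0% of all probe sets did. At an unadjusted p under 0.05, 12 were lower, or 29.3%, against 7.03% of all probe sets, and 0 were higher, against 7.1%. The 3 IR-A values lay wholly below the 3 control values in 11 genes, against 9.45% of all probe sets, and wholly above them in 0, against 7.73%. Because the contrast was used in choosing the genes, nothing is read from these shares. A lower signal in a bulk tumour cannot tell fewer cycling cells from less RNA per cell. The count of 12 was 7 without control tumour 1 and 7 without IR-A tumour 2, where 4.61% and 5.2% of all probe sets were lower at that level.

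The spread of sizes was wide. MND1 stood alone at more than 1 log2 unit, 9 further genes lay at least 0.5 below 0, no gene lay 0.5 above it, and 11 lay within 0.1 of 0. Of all probe sets, 4.25% lay at least 0.5 below 0 and 5.56% at least 0.5 above it. The genes furthest below 0 came from different steps of the pathway, and most steps also held genes with differences close to 0. The plot of differences by role shows this mixture.

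**Figure D1:**
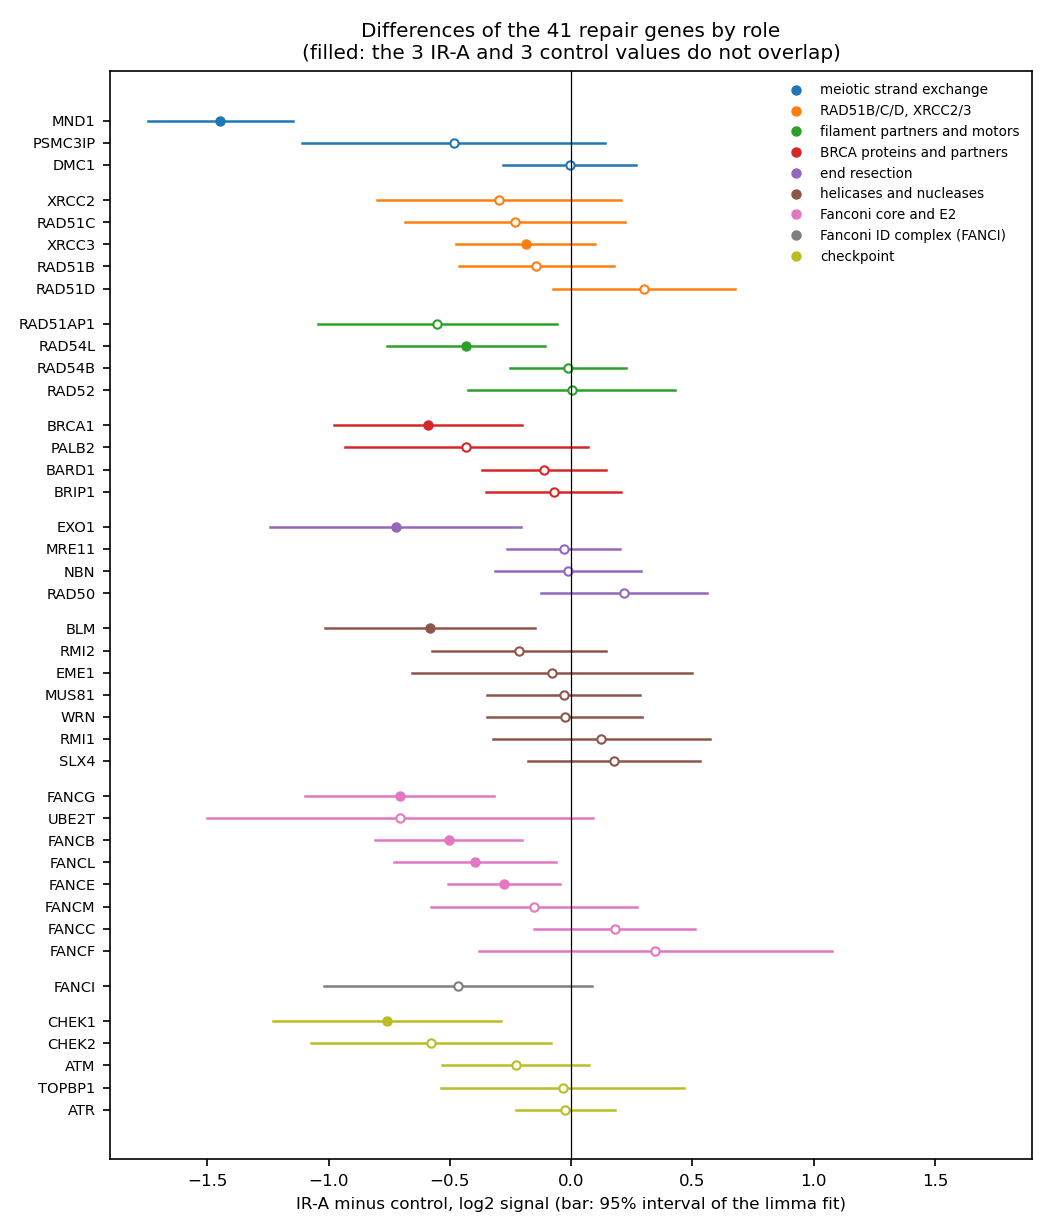
Difference in log2 signal, IR-A minus control, for the 41 repair genes, grouped by role on the vertical axis, with 95% intervals from the limma fit (3 tumours per group) and filled points where the groups do not overlap. MND1 lies furthest left at -1.45, and RAD51D and FANCF lie furthest right at 0.30 and 0.35 with intervals that cross 0.

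MND1 and PSMC3IP encode the subunits of a dimer that, in meiosis, stabilises recombinase filaments and helps them capture the partner chromosome. MND1 read 5.50, 5.56 and 5.58 in IR-A tumours, against 7.23, 6.82 and 6.94 in control tumours. The IR-A tumours differed from each other by less than 0.1, and the lowest control lay 1.24 above the highest of them. The difference was -1.45 (SE 0.12, 95% interval from -1.75 to -1.15), a 2.72-fold lower signal, with an adjusted p of 0.0769 in limma. With 1 tumour left out at a time, the adjusted p ran from 0.0261 without control tumour 2 to 0.407 without IR-A tumour 1, and it was under 0.05 only without control tumour 2. RefSeq lists pseudogenes named for 6 of the 41 genes, namely MND1, RAD51AP1, RAD52, BRCA1, MRE11 and CHEK2, and whether their probe sets separate the copies was not checked.

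PSMC3IP, the partner in that dimer, read 4.79, 4.53 and 5.03 in IR-A tumours and 5.19, 5.80 and 4.82 in control tumours. Control tumour 3 lay below IR-A tumour 3, so the groups overlapped, and the difference was -0.48 (SE 0.26, 95% interval from -1.11 to 0.14). DMC1, the recombinase specific to meiosis, was dim, below the median probe set of 4.71. It read 3.71, 3.91 and 3.91 in IR-A tumours, against 3.89, 3.69 and 3.97 in control tumours. Its difference was -0.0063 (SE 0.11), with an interval from -0.28 to 0.27.

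Other genes of meiotic recombination were mostly dim and lay on both sides of 0. Of 33 measured, from SPO11 to SYCP3, 29 were dimmer than the median probe set, the median difference was -0.0053, and 17 lay below 0. At an unadjusted p under 0.05, 0 were lower and 2 were higher, against 7.03% and 7.1% of all probe sets, namely STAG3, a meiotic cohesin subunit (0.30, SE 0.09), and TERB2, which tethers telomeres in meiosis (0.84, SE 0.31). MSH5, a protein that stabilises crossover intermediates, came next at -0.72 (SE 0.31).

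**Figure D2:**
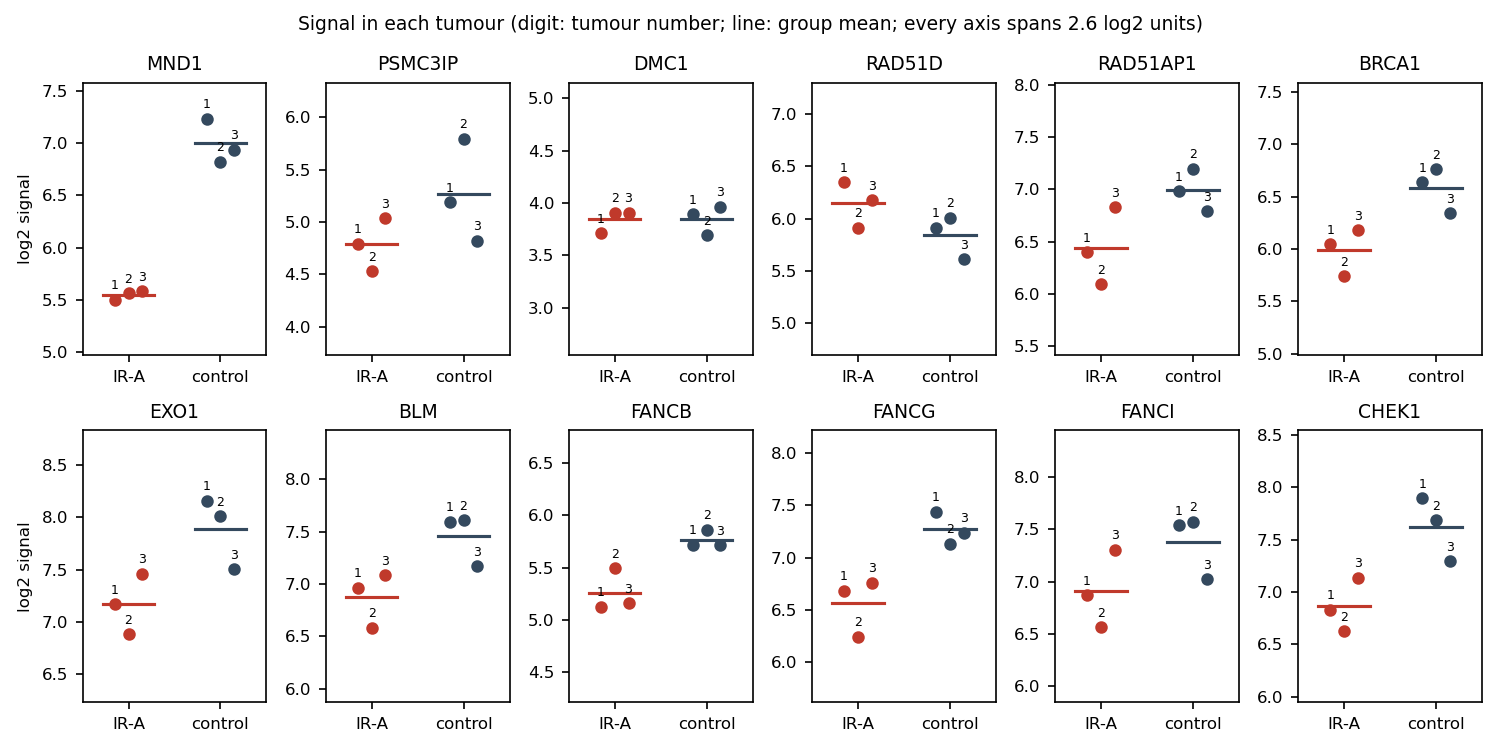
Log2 signal in each tumour for 12 genes chosen by role or by the size and separation of their groups, with IR-A on the left and control on the right of every panel, digits for tumour numbers and lines for group means. MND1 shows 3 IR-A values close together at 5.50 to 5.58 and far below the controls, whereas in EXO1, BLM and CHEK1 the highest IR-A value lies only 0.05, 0.09 and 0.15 below the lowest control value.

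Promoters were compared because genes of DNA repair and replication commonly share binding sites of E2F factors, which switch on genes as cells enter S phase. RefSeq promoters (build GRCh38.p14, 250 bases before to 50 after an annotated start) were held for 36 of the 41 genes. A gene can have several promoter entries and was counted if any of them held the letters. The letters TTCCCGC or TTGGCGC, on either strand, stood in a promoter of 20 of these 36 genes (55.6%). The share was 13.9% of 17059 genes on the arrays that have an entry. It was 9.23% of all 35116 promoters in the table, counted singly, which is not a share of genes. These are matches of letters and not shown to be bound. The windows of 60 bases printed here belong to those of the 12 genes plotted by tumour whose match begins before a start. They run 5′ to 3′ along the gene, in lower case with the match in capitals, where GCGGGAA is TTCCCGC and GCGCCAA is TTGGCGC read on the other strand.
MND1, chr4:153344618-153344677, + strand, match beginning 34 bases before the start: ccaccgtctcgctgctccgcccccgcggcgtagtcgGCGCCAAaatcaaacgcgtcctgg
DMC1, chr22:38570179-38570238, - strand, match beginning 2 bases before the start: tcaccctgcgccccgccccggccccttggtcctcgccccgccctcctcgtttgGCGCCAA
RAD51D, chr17:35119795-35119854, - strand, match beginning 60 bases before the start: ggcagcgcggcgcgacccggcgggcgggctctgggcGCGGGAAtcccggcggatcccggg
RAD51AP1, chr12:4538830-4538889, + strand, match beginning 21 bases before the start: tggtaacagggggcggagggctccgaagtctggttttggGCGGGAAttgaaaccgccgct
BRCA1, chr17:43125388-43125447, - strand, match beginning 47 bases before the start: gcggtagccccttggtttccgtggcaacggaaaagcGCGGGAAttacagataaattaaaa
BLM, chr15:90717236-90717295, + strand, match beginning 74 bases before the start: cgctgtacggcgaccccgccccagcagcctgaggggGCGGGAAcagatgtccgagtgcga
FANCG, chr9:35080003-35080062, - strand, match beginning 84 bases before the start: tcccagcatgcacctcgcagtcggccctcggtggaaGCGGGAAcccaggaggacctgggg

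Genes with a match had differences both far below 0 and above it. MND1, furthest below 0, and DMC1, next to 0, both hold the TTGGCGC form, and in DMC1 the match on the other strand overlaps it. RAD51D, above 0, holds the same TTCCCGC form as BRCA1, BLM and FANCG. EXO1, CHEK1 and FANCB, which had some of the lower values, hold neither form in the promoters searched. PSMC3IP also holds a match, but none that begins before a start, so no window is printed for it. FANCI had no promoter entry. Repair genes with a match had a median difference of -0.23, and 8 of 20 were lower at an unadjusted p under 0.05. Those without had a median of -0.19, and 4 of 16 were lower. Over all genes on the arrays with a promoter entry, 9.49% of those with a match and 6.6% of those without were lower at that level.

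CCAAT, the box bound by the factor NF-Y, stood on either strand in a promoter of 17 of the 36 genes (47.2%). It stood in 41.4% of genes on the arrays and in 34.6% of all promoters counted singly. The reverse of CCAAT can share letters with TTGGCGC. The 17 had a median difference of -0.43 and the other 19 one of -0.11, yet 6 genes of each kind were lower at an unadjusted p under 0.05. Over all genes on the arrays with a promoter entry the medians were -0.01 with the box and -0.02 without it, and 7.48% and 6.67% were lower at that level. TTTGAA, the cell cycle gene homology region of genes expressed before mitosis, stood in 4 of 36 genes (11.1%), namely UBE2T, ATM, BRIP1 and FANCC. It stood in 16.2% of genes on the arrays and in 15.2% of all promoters counted singly. None of the 4 was lower at that level, against 7.65% of genes on the arrays that hold the letters.

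The recombinase paralogs RAD51B, RAD51C, RAD51D, XRCC2 and XRCC3 form complexes that support filament assembly. Their differences ran from -0.30 to 0.30 with a median of -0.19, and none was lower at an unadjusted p under 0.05. RAD51D, whose difference was largest in size, read 6.35, 5.91 and 6.17 in IR-A tumours, against 5.91, 6.01 and 5.61 in control tumours. The groups overlapped, and the difference was 0.30 (SE 0.16, 95% interval from -0.08 to 0.68). In XRCC3 the groups did not overlap, but they were separated by 0.01 only and the signal was dim.

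Among the proteins that work on the filament, RAD51AP1, which stimulates strand pairing, read 6.40, 6.09 and 6.83 in IR-A tumours and 6.98, 7.20 and 6.79 in control tumours. IR-A tumour 3 lay above control tumour 3, and the difference was -0.55 (SE 0.21). RAD54L, a motor protein that drives strand exchange, differed by -0.43 (SE 0.14), with IR-A values from 4.79 to 4.97 and control values from 5.09 to 5.54. Its relative RAD54B differed by -0.01 (SE 0.10), and RAD52, which anneals single strands, by 0.0020 (SE 0.18).

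BRCA1, the ubiquitin ligase that promotes end trimming and loading of the recombinase, read 6.05, 5.74 and 6.18 in IR-A tumours, against 6.64, 6.76 and 6.34 in control tumours. All IR-A tumours lay below all controls, and the difference was -0.59 (SE 0.16, 95% interval from -0.98 to -0.20, adjusted p = 0.208). Its obligate partner BARD1 differed by -0.11 (SE 0.11). PALB2, which bridges BRCA proteins, differed by -0.43 (SE 0.21), with control tumour 3 below IR-A tumour 1, and the helicase BRIP1 by -0.07 (SE 0.12).

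End trimming showed a similar mixture. EXO1, the exonuclease of long-range trimming, read 7.17, 6.88 and 7.46 in IR-A tumours and 8.16, 8.01 and 7.51 in control tumours. The highest IR-A value lay 0.05 below the lowest control, and the difference was -0.72 (SE 0.22, adjusted p = 0.233). The complex of MRE11, RAD50 and NBN, which binds broken ends first, had differences of -0.03 (SE 0.10), 0.22 (SE 0.14) and -0.01 (SE 0.13). RAD50 was higher at an unadjusted p under 0.05 once control tumour 2 was left out (0.36), where 10.3% of all probe sets were higher.

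BLM, the helicase that dissolves joined molecules, read 6.96, 6.58 and 7.08 in IR-A tumours, against 7.60, 7.61 and 7.17 in control tumours. The groups were apart by 0.09, and the difference was -0.58 (SE 0.18, adjusted p = 0.243). Its cofactors differed by 0.12 (SE 0.19) for RMI1 and -0.21 (SE 0.15) for RMI2. The related helicase WRN (-0.03, SE 0.13), the nuclease subunits MUS81 (-0.03, SE 0.13) and EME1 (-0.08, SE 0.24) and the nuclease scaffold SLX4 (0.18, SE 0.15) had intervals that crossed 0. For EME1 the interval ran from -0.66 to 0.50, so a difference as large as that of BLM was within it.

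Of the 8 genes measured of the Fanconi core complex, its E2 enzyme UBE2T and the anchoring translocase FANCM, 4 were lower at an unadjusted p under 0.05 and 0 were higher, against 7.03% and 7.1% of all probe sets. FANCG, which links core subunits, read 6.68, 6.25 and 6.76 in IR-A tumours and 7.44, 7.13 and 7.24 in control tumours. The groups were 0.37 apart, the widest gap after MND1, and the difference was -0.71 (SE 0.16, 95% interval from -1.10 to -0.32, adjusted p = 0.166). FANCB, which forms the catalytic module together with the ubiquitin ligase FANCL, read 5.13, 5.49 and 5.16 in IR-A tumours, against 5.72, 5.86 and 5.71 in control tumours, a difference of -0.50 (SE 0.13). Here IR-A tumour 2 was the highest of its group, unlike in FANCG.

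FANCL differed by -0.40 (SE 0.14) and FANCE, which contacts the substrate, by -0.28 (SE 0.10), both with groups that did not overlap, and FANCE was dim. UBE2T ran from 7.58 to 8.82 in IR-A tumours and from 8.75 to 9.36 in control tumours. IR-A tumour 3 lay within the range of the controls, and the difference of -0.71 had an SE of 0.33. FANCM differed by -0.15 (SE 0.18), FANCC by 0.18 (SE 0.14) and FANCF by 0.35 (SE 0.30). FANCF, picked out after its values were seen, varied widely within both groups, with IR-A values of 5.82, 4.93 and 5.68 against control values of 4.92, 5.64 and 4.83. IR-A tumour 2 sat with control tumours 1 and 3, and control tumour 2 with the other IR-A tumours. FANCI, which the core complex marks with ubiquitin, read 6.87, 6.57 and 7.31 in IR-A tumours and 7.54, 7.58 and 7.02 in control tumours, a difference of -0.47 (SE 0.23) with overlapping groups.

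In the checkpoint, the differences furthest below 0 were those of CHEK1 and CHEK2, the kinases that ATR and ATM act on. CHEK1, the kinase that ATR activates, read 6.83, 6.63 and 7.14 in IR-A tumours, against 7.90, 7.68 and 7.29 in control tumours. Its groups did not overlap, and the difference was -0.76 (SE 0.20, 95% interval from -1.23 to -0.29, adjusted p = 0.192). CHEK2, the kinase that ATM activates, differed by -0.58 (SE 0.21), with control tumour 2 just below IR-A tumour 3. ATM differed by -0.23 (SE 0.13), ATR by -0.02 (SE 0.08) and TOPBP1, the activator of ATR, by -0.03 (SE 0.21). The intervals ended at -0.53 for ATM and -0.23 for ATR on the low side.

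The tumours were not alike within their groups. IR-A tumour 2 was the lowest of its group in 29 of the 41 genes and the lowest of all 6 tumours in 24, and control tumour 2 was the highest of its group in 25 and of all 6 in 20. Control tumour 3 was the lowest control in 27 genes. The mean over the 41 genes was 6.16, 5.98 and 6.24 in IR-A tumours and 6.41, 6.51 and 6.20 in control tumours, so control tumour 3 lay below IR-A tumour 3. Among the 12 genes lower at an unadjusted p under 0.05, IR-A tumour 2 was the lowest of its group in 10 and control tumour 3 the lowest control in 8. How often each tumour was lowest or highest over all probe sets was not counted, so these orders may not be particular to the repair genes. The median SD within groups was 0.20 for the repair genes, against 0.18 for all probe sets.

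**Figure D3:**
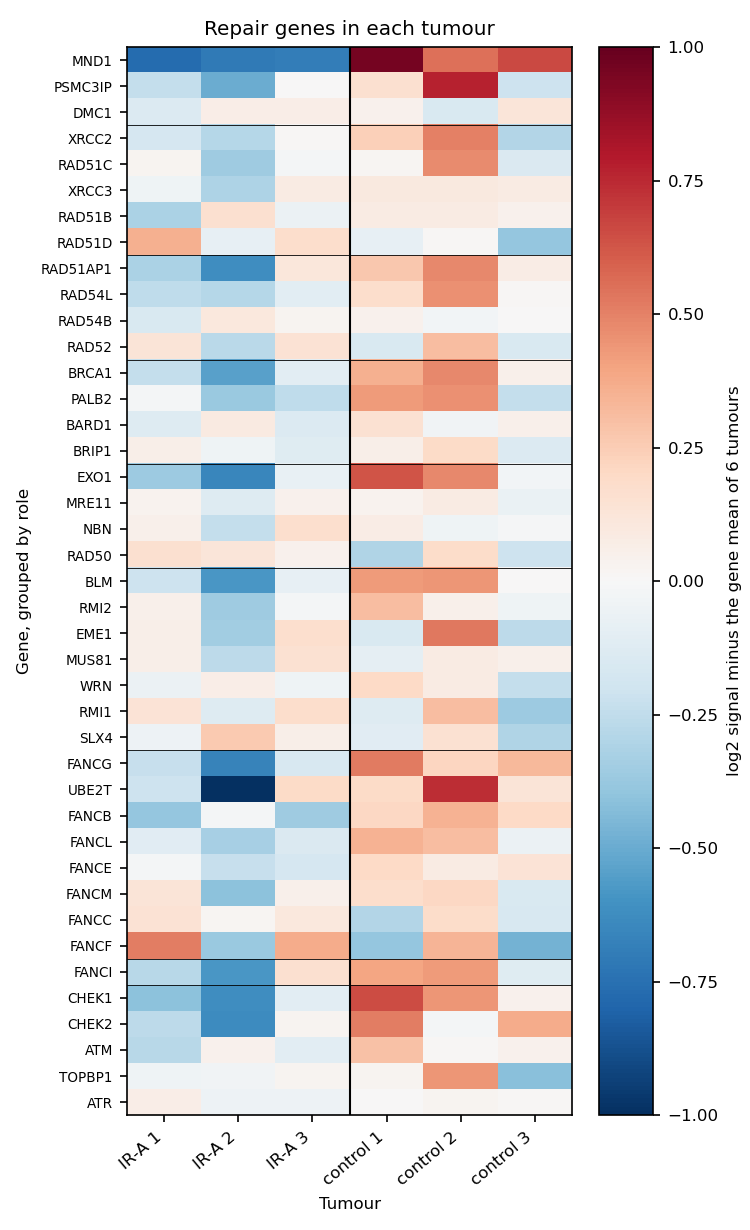
Log2 signal of the 41 repair genes in each tumour, as the deviation from the gene's mean over all 6 tumours, with IR-A tumours left of the line, control tumours right of it and genes grouped by role. The column of IR-A tumour 2 is blue in most rows, as the lowest of its group in 29 genes, and that of control tumour 2 is mostly red, as the highest of its group in 25, while MND1 is blue in all 3 IR-A tumours.

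Genes of the cell cycle were also lower in mean signal in IR-A tumours. The mean of 37 replication and S phase genes was 7.21, 6.98 and 7.42 in IR-A tumours, against 7.73, 7.72 and 7.47 in control tumours, again with IR-A tumour 2 lowest and control tumour 3 lowest among controls. The mean of 28 mitotic genes was 7.70, 7.47 and 7.99 in IR-A tumours and 8.34, 8.39 and 8.17 in control tumours. The median difference was -0.48 for the replication list, with 19 of 37 lower at an unadjusted p under 0.05, and -0.59 for the mitotic list, with 23 of 28 lower, against 7.03% of all probe sets. None of these genes passed an adjusted p of 0.05. The genes of smallest p were PRIM1, a primase subunit (-0.79), the replication licensing factor CDT1 (-0.90) and the helicase subunit MCM6 (-0.70), and in mitosis CCNB2 (-0.90), PLK1 (-0.95) and the spindle motor KIF11 (-0.72).

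Set against these lists within each tumour, MND1 and the mean of the other repair genes lay on opposite sides. MND1 minus the mean of the replication list was -1.71, -1.42 and -1.84 in IR-A tumours, against -0.50, -0.89 and -0.54 in control tumours, and the mean of the other 40 repair genes minus the same list was -1.03, -0.99 and -1.17 in IR-A tumours, against -1.34, -1.21 and -1.29 in control tumours. The differences between groups were -1.01 for MND1 and 0.22 for the other genes. Against the mitotic list they were -0.86 and 0.37. MND1 was lower in IR-A tumours by more than these lists were on average, and the other repair genes on average by less. These are means over 3 tumours that carry no test. The lowest single genes of the replication and mitotic lists differed by -0.99 and -0.95. MND1 was listed with its difference already known, so nothing is read from its place below the list means.

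The other genes of both pathways came from lists drawn up by function, with earlier results of these data known. Of 30 other homologous recombination genes, 24 lay below 0 with a median of -0.17, and 6 were lower and 0 higher at an unadjusted p under 0.05. The shares of all probe sets to set beside this and the counts that follow are 7.03% lower and 7.1% higher. The smallest p values belonged to RPA3, a subunit of the single-strand binding complex (-0.43, SE 0.11), PARPBP, which restrains recombination (-0.74, SE 0.21), and SFR1, a cofactor of the recombinase (-0.55, SE 0.17). Of 16 other Fanconi genes none was lower or higher at that level, and the median was -0.07. REV3L, a subunit of a translesion polymerase, differed by 0.19, the nuclease DCLRE1A by -0.19 and the chromatin factor UHRF1 by -0.25. Of 16 other checkpoint genes, 8 were lower and 1 higher with a median of -0.33, led by the histone variant H2AX (-0.67, SE 0.11), CLSPN, which brings CHEK1 to ATR (-0.58, SE 0.13), and the fork protein TIPIN (-0.73, SE 0.18).

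Other repair pathways had medians from -0.17 to 0.0047. Of 15 genes of non-homologous end joining, which seals ends without a template, 3 were lower with a median of -0.17, among them XRCC4 (-0.33), PAXX (-0.39) and NHEJ1 (-0.51). Base excision repair had a median of -0.10 with 3 of 20 lower, UNG (-0.66), FEN1 (-0.70) and APTX (-0.33), and nucleotide excision repair one of 0.0047 with 3 of 20 lower and 2 higher, where ERCC6 differed by 0.74, CDK7 by -0.42 and ERCC8 by -0.64. The 4 mismatch repair genes measured had a median of -0.16, with MSH6 at -0.26, PMS1 at -0.38 and PMS2 at 0.10. Among the factors that control cell cycle genes, 5 of 20 were lower and 0 higher with a median of -0.15, led by E2F2 (-0.53), the pocket protein RBL1 (-0.51) and E2F1 (-0.64). The differences between lists were not tested.

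**Figure D4:**
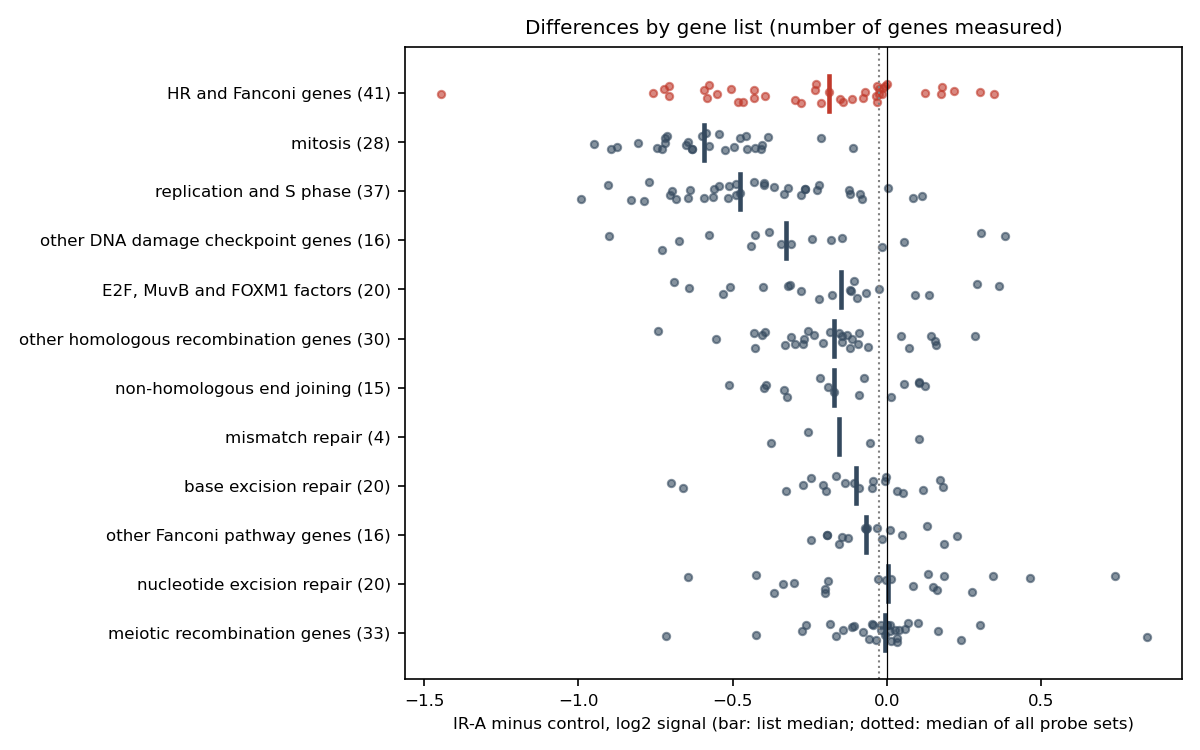
Difference in log2 signal, IR-A minus control, for each gene of the repair list (top row) and of 11 other lists, with bars at list medians and a dotted line at the median of all probe sets. The repair genes have a median of -0.19, with MND1, listed with its difference known, at -1.45 and the others from -0.76 to 0.35. The mitotic and replication lists lie furthest left at medians of -0.59 and -0.48.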

How the data were processed

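The authors deposited a table of log2 signals with a row per probe set. The submitters' processing notes list RMA, a method of background correction, normalization and probe summary, and Partek, with no version. Rows are named by an Entrez gene number followed by _at, and no repair gene had more than 1 probe set. Array model, build and any further definition of the probe sets were not given in the sources used here, so none is named. The log2 scale was read from the values. RMA compresses differences of dim probe sets. GEO's annotation names 23934 of 24726 probe sets by 1 gene, and 792 are unnamed. Genes of the lists that it does not name are not reported here. No 2 arrays shared more than 4.15% of values.

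IR-A and control tumours were compared over all probe sets with limma 3.58.1 in R 4.3.3 (lmFit, eBayes, no filter), with Benjamini-Hochberg adjustment. The 3 arrays per group limit the precision. The members and lists were chosen with earlier results of these data known, so no list was tested. MND1, PSMC3IP and DMC1 are given per tumour, with members whose groups do not overlap and differ by at least 0.5, and the member of largest difference in each role. Of each other list, the 3 genes of smallest p are named. The fit was tested on simulated data with independent noise on each array. Deviations shared between the real arrays were not simulated, so that test does not cover them. Alternatives were quantile normalization, median centring, filters on dim probe sets, trend, robust moderation, array weights, a replicate block and leaving out each tumour. Figures used matplotlib 3.10.9.

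The labels name no pairing of tumours, so the numbers were not taken as pairs. Deviations of same-numbered tumours from their group means had correlations of -0.29, -0.36 and 0.02 over all probe sets. In each group of 3 these deviations sum to 0. The correlations therefore depend on each other and cannot show whether tumours were paired. Between tumours of different number the correlations ran from -0.32, for IR-A tumour 1 with control tumour 3, to 0.50, for IR-A tumour 1 with control tumour 2. The cause of these shared deviations was not tested.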

Additional observations from a re-analysis of the deposited data

How the results depend on the processing

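In place of 0, limma called 14 probe sets after the dimmest 25% had been removed, 20 after the dimmest 50% had been, where fewer were tested, and 11 with array weights. It was 0 to 308 with 1 tumour left out, with calls only without control tumour 2. Probe sets at an unadjusted p under 0.05, 3493 as reported, were 2156 to 5206 with 1 tumour left out. Repair genes lower at that level were 7 to 14, while the share of all probe sets lower ran from 4.61% to 10.7%. Repair genes higher at that level were 0 to 2. RAD50 and FANCC were higher without control tumour 2, where 10.3% of all probe sets were higher. RAD51D was higher without IR-A tumour 2, where 5.59% of all probe sets were. Repair genes lower with groups apart, 11 as reported, were 9 with median centring and 13 with quantile normalization. They were 9 of 35 after the dimmest 50% had been removed. With 1 tumour left out they were 11 to 18, the most without control tumour 3. Leaving out a tumour cannot make separated groups overlap, so this count could not fall below 11 and nothing is read from its rise. The share of all probe sets with groups apart was not counted in these settings. The median difference of the repair genes ran from -0.26 to -0.11. MND1 passed after removal of the dimmest 25% (-1.45, adjusted p = 0.0471) or 50% (-1.45, 0.0350), under array weights (-1.49, 0.0480) and without control tumour 2. Its difference was -1.53 to -1.33 over left-out tumours, and its adjusted p ran from 0.0261 to 0.407 over all alternatives. DMC1 turned to 0.027 with quantile normalization and 0.0094 with median centring, and ran from -0.086 to 0.060 over left-out tumours. In all, 12 repair genes had the other sign in at least 1 of the alternatives run for them, of which FANCM had the largest reported difference in size (-0.15), and 29 did not. There were 14 alternatives, and 13 for the 6 dim genes that removal of the dimmest 50% took out. MND1, BRCA1, EXO1, FANCB, FANCG and CHEK1 had an unadjusted p under 0.05 in each of the 14. The share of all probe sets that did so was not counted. The alternatives refit the same tumours and are not separate tests. With the replicate number as a block, 9 repair genes were lower at that level, against 12, 0 probe sets were called, and the adjusted p of MND1 was 0.342. The causes of these shifts were not tested. The deposited values hold no measure of background, so whether dim genes such as DMC1 and RAD51B lay above it is not known. Their differences are uncertain in a way that the SE does not show.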
